A study of Mus musculus with 2 samples.

Results

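Cytosolic ribosomal proteins are the protein part of the ribosome, the machine that makes every protein of the cell. The small subunit reads the mRNA, the large subunit joins the amino acids, and the stalk proteins of the large subunit (Rplp0, Rplp1 and Rplp2) recruit the elongation factors. Their mRNAs are among the most abundant of any tissue, many begin with a run of pyrimidines through which growth signals control their translation, and several serve as reference genes in PCR. The genes were chosen by name alone: every probe whose gene name on the array followed the pattern of a ribosomal protein (Rpl or Rps with a number, Rplp0 to Rplp2, or Rpsa). This gave 80 gene names, measured by 134 probes, among 27962 gene names on the arrays.

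The arrays held total RNA from whole livers of male apoE-KO mice, which lack apolipoprotein E and accumulate cholesterol-rich lipoproteins. The mice were 10 weeks of age when the diets began, and were given either normal chow or a high-Chol diet with 1.25% cholesterol for 1 week. Each diet had 3 arrays of 1 colour. All animals, the chow-fed ones included, carried the Apoe deletion, so wild-type liver was not part of the comparison. A value is the log2 signal of a probe minus the 75th percentile of its array, and a difference is the high-Chol mean minus the normal chow mean on that scale. In bulk liver, fewer cells of a type and less RNA per cell cannot be told apart.

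Features of the arrays bear on what follows. The 3 normal chow arrays and high-Chol array 1 lay on slide 1, whereas high-Chol arrays 2 and 3 lay on slide 2, which had been read with another version of the scanner software and gave brighter raw signals (75th percentile 762 to 799, against 271 to 373 on slide 1). The diets therefore share a slide only through 1 high-Chol array. A difference given below with slide as a block is thus that of high-Chol array 1 alone from the chow mean. It is not a separate estimate from all the arrays. Array numbers follow the order on the slides and do not pair the diets. In addition, normal chow array 2 gave the highest of the 3 chow values for 71 of the 79 ribosomal protein genes tested, and the highest of all 6 values for 54 of the 77 genes measured on every array.

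To show what the probes read, 3 pairs of overlapping 60-base probes of the same gene are given. The probes of each pair gave unlike differences between the diets, as described further on. Positions are those of mouse build mm7 in the scanner files, all on the plus strand. The Rpl7a pair (chr2:26920485-26920544 and chr2:26920531-26920589) shares 14 bases, in capitals. The probes of the Rpl35a pair (chr16:32732018-32733213 and chr16:32732033-32733233, spans longer than the probes themselves) overlap by 45 bases, and those of the Rpl29 pair (chr9:106160526-106160585 and chr9:106160553-106160612) by 33 bases. In these pairs capitals mark the bases at which the overlapping parts differ, 4 for Rpl35a and 3 for Rpl29.
Rpl7a first probe: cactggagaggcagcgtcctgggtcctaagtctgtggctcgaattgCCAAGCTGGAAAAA
Rpl7a second probe: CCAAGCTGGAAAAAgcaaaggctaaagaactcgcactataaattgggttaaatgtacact
Rpl35a first probe: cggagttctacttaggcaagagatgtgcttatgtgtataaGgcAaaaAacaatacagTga
Rpl35a second probe: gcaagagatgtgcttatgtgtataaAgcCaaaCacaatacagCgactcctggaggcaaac
Rpl29 first probe: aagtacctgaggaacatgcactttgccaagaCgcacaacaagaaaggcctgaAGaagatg
Rpl29 second probe: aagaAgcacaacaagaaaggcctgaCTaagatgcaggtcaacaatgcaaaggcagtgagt

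A pyrimidine run, for which this gene family is known, lay at or near the annotated transcript start in some of the genes. RefSeq (GRCm38.p6) gave a start for 60 of the 80 genes. Within the 30 bases centred on the start, 25 of these 60 genes (41.7%) held a run of at least 8 bases that began with C and went on with C or T only, read on the transcribed strand, against 10.8% of the 27025 genes in the same table. The window takes in 15 bases before the start, so a run in it need not open the transcript. Runs, in capitals, in 3 genes and 2 starts without one are shown for genes whose values are described below. They lie at chr17:33955651-33955680 (Rps18, minus strand), chr2:26910792-26910821 (Rpl7a, plus), chr7:45128731-45128760 (Rpl13a, minus), chr10:128549154-128549183 (Rpl41, minus) and chr11:101442230-101442259 (Rpl27, plus).
Rps18 start: tacgtcacttccgCTCTCTCTTCCacagga
Rpl7a start: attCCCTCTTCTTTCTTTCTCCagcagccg
Rpl13a start: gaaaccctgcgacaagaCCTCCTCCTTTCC
Rpl41 start: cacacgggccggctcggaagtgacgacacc
Rpl27 start: acgctctgttcctgtctgctgctcgtgctg

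In the 300 bases around the start, read on both strands, CCGGAAG, the letters of an ETS-type site, occurred in 24 of the 60 genes (40%) against 9.93% of all genes in the table. AAGATGGC, the letters of a YY1 site, occurred in 6 genes (10.0%) against 3.19%, and TATAAA in 7 genes (11.7%) against 15.7%. These are matches of letters, not measured binding sites. The 25 genes with a pyrimidine run and the 34 tested genes without one had median log2 differences between the diets of -0.059 and -0.060 under the scaling used, and the split was not tested.

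The diet comparison asked whether 1 week of cholesterol feeding moved the mRNAs of the ribosome itself. No ribosomal protein gene passed the test in either direction: 0 of 79 genes were called by limma at an adjusted p below 0.05, where 2.69% of all 16727 genes tested were called higher on the high-Chol diet and 0.227% lower. At an unadjusted p below 0.05, 0 genes were higher and 3 were lower (Rpl41, Rplp1 and Rps18), against 12.3% and 8.83% of all genes. The equal-variance test named in the methods gave 0 calls after adjustment, with 0 higher and 4 lower before it (8.38% and 8.30% of all genes). limma with a trended prior gave 0 calls, with 0 higher and 7 lower before adjustment (12.0% and 10.5% of all genes). Every one of the 79 genes had its probe well above background on all 6 arrays. The remaining gene, Rpl3l, a paralog of Rpl3 known from skeletal and heart muscle, was not well above background on any array and was not tested.

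The differences were small. They ran from -0.61 (Rpl41) to 0.37 (Rpl13a), with the middle of the genes between -0.22 and 0.0050 (25th to 75th percentile), whereas the same range over all genes was -0.26 to 0.32. Only Rpl41 exceeded 1.5-fold in the lower direction, 1 of 79 genes against 5.84% of all genes, and 0 exceeded it in the higher direction, against 15.4%. For 49 of the 79 genes (62%) the 95% interval of the difference lay wholly inside 1.5-fold either way, as it did for 25.8% of all genes, and for 77 genes it lay inside 2-fold. Of the other 30 genes, 26 had an interval that reached 1.5-fold lower and 5 had one that reached 1.5-fold higher, Rpl21 being in both counts. These intervals hold for the scaling used and leave out any error of the scaling itself. The family is also bright: 72 of the 79 genes had a mean level over 4, where the array medians of all genes lay between -0.17 and -0.13. The shares over all genes were not matched for signal level.

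**Figure D1:**
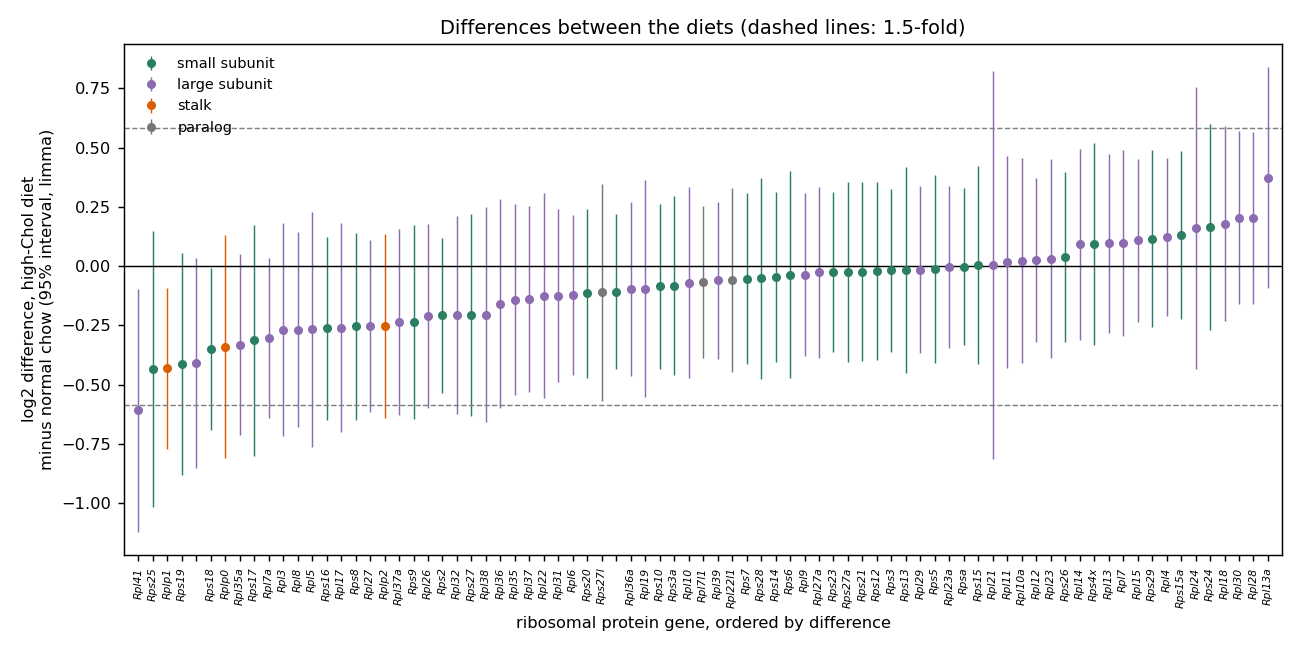
Log2 difference between the diets (y axis, high-Chol diet minus normal chow) for the 79 ribosomal protein genes tested, ordered along the x axis from lowest to highest, with 2 gene names left off the axis. Points are limma estimates from 3 arrays per diet (5 arrays in all for Rps13 and Rpl21), bars are 95% intervals, colours mark the subunit, and dashed lines mark 1.5-fold. The points run from -0.61 for Rpl41 to 0.37 for Rpl13a, and the interval of every gene but Rpl41, Rplp1 and Rps18 crosses 0.

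Under the scaling used, 58 of the 79 genes had a lower mean on the high-Chol diet and 21 a higher one. The median difference was -0.067, against -0.023 over all genes, and 26.6% of the ribosomal protein genes were on the higher side against 47.8% of all genes. This count did not hold under other scaling. With a normexp background, which added a fixed 50 to every signal, the median was 0.21 with 71 of 79 genes higher. That amount is a larger part of the signal on the dimmer slide 1 than on slide 2. Its part in the values with normexp was not tested. With quantile normalization the median was 0.14 with 57 higher. With each array scaled to its median it was -0.30 with 1 gene higher. All genes together had medians of -0.11, 0.030 and -0.26 under these 3 settings, so that the difference of the medians, ribosomal protein genes minus all genes, was 0.31, 0.11 and -0.047. Leaving out normal chow array 2 alone brought the median to 0.0044, with 41 of 79 genes higher.

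**Figure D2:**
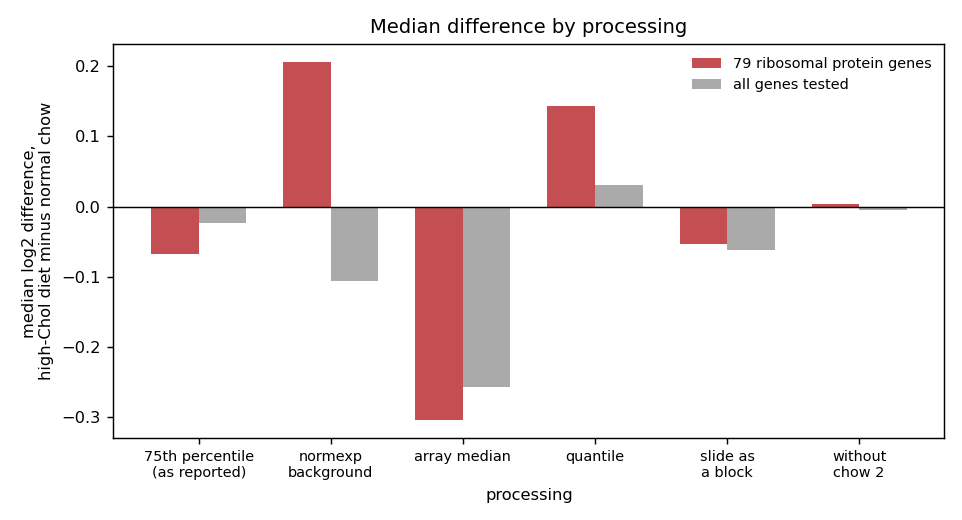
Median log2 difference (y axis, high-Chol diet minus normal chow) of the 79 ribosomal protein genes (red bars) and of all genes tested (grey bars) under 6 ways of processing the same arrays (x axis). The red bars run from -0.30 with the array median to 0.21 with the normexp background.

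Of the stalk proteins, Rplp1 lay nearest the lower end, whereas the value of Rplp0 depended on the probe. Rplp1, an acidic protein of the stalk, read 8.63, 8.74 and 8.68 on normal chow, and the high-Chol arrays gave 8.40, 8.20 and 8.16. All 3 high-Chol values lay below all 3 chow values, and the means of 8.68 ± 0.053 and 8.25 ± 0.13 (SD, n = 3) differed by -0.43 ± 0.14 (SE, adjusted p = 0.173, limma). That was the lowest adjusted p of the family. With slide as a block the difference was -0.29, and with the normexp background -0.13. Rplp2, its partner, differed by -0.25 ± 0.16 (SE, n = 3 arrays per diet), or by -0.064 with slide as a block.

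The probe named for Rplp0, which anchors the stalk and is widely used as a reference gene, read 4.32, 4.34 and 4.32 on normal chow, and 4.39, 3.80 and 3.77 after high-Chol feeding. The low values were those of the 2 arrays on slide 2, and high-Chol array 1 lay above the chow arrays. The difference of -0.34 ± 0.20 (SE) became 0.062 with slide as a block, which is the departure of high-Chol array 1 alone. This probe matched no RefSeq accession of Rplp0. A pair of probes under its older name, Arbp, did match, and these differed between the diets by 0.038 ± 0.16 and -0.12 ± 0.16 (SE), so a lower level of Rplp0 itself was not shown.

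Rpl41, the shortest protein of the large subunit, had the most negative difference. Normal chow gave 7.21, 7.56 and 7.24, and high-Chol feeding gave 7.12, 6.57 and 6.48. The diets did not overlap, but high-Chol array 1 lay only just below the lowest chow array and the slide 2 arrays lay well below. The means were 7.33 ± 0.19 and 6.73 ± 0.35 (SD, n = 3), a difference of -0.61 ± 0.22 (SE, 1.52-fold, adjusted p = 0.188, limma). With slide as a block the difference was -0.21, and with the normexp background -0.28. Without high-Chol array 1, limma called 3 genes lower: Rpl41 (-0.81, adjusted p = 0.0252), Rps25 (-0.68, adjusted p = 0.0479) and the probe named Rplp0 (-0.54, adjusted p = 0.0430). These are 3 of 79 genes, where 4.55% of all genes were called lower in the same fit, and Arbp differed there by 0.14 (adjusted p = 0.547). Those calls set slide 1 against slide 2, and the slide cannot be told apart from the diet there.

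Rpl7a differed by -0.30 ± 0.14 (SE) from chow values of 8.48, 8.58 and 8.48 to high-Chol values of 8.35, 8.12 and 8.16, without overlap. The difference did not pass the test (adjusted p = 0.270, limma). It was -0.17 with slide as a block, -0.039 with the normexp background and -0.062 as the mean of the kept probes of the gene.

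In the small subunit, Rps18 read 8.42, 8.64 and 8.50 on normal chow, against 8.24, 8.21 and 8.07 after high-Chol feeding. All 3 high-Chol values were lower, that of slide 1 included, and the difference was -0.35 ± 0.15 (SE, adjusted p = 0.232, limma) or -0.28 with slide as a block. Under the normexp background it was 0.065. Rps2 behaved in the same way across the slides, with 8.26, 8.41 and 8.22 against 8.06, 8.09 and 8.12, a difference of -0.21 ± 0.14 (SE), or -0.23 with slide as a block. With normexp the Rps2 difference was 0.038.

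Rps25, a small-subunit protein needed by some viral internal ribosome entry sites, showed the other pattern. It read 6.36, 6.78 and 6.61 on normal chow, 6.64 on high-Chol array 1, and 5.98 and 5.83 on the slide 2 arrays. Only the slide 2 arrays were low. The difference was -0.43 ± 0.25 (SE, adjusted p = 0.340, limma), and 0.057 with slide as a block. Rps19, the gene first found mutated in Diamond-Blackfan anaemia, differed by -0.41 ± 0.20 (SE), from 5.48 ± 0.28 to 5.07 ± 0.20 (SD, n = 3), and its high-Chol array 1, at 5.28, was within the chow range. The Rps19 difference was -0.20 with slide as a block and -0.040 with the normexp background, and the other kept probe of the gene gave 0.049 ± 0.20 (SE). Of these 2 probes only the latter carries an accession that RefSeq lists for Rps19. The former starts close by on chromosome 7 (mm7 position 21678419, against 21674338). The lack of an accession therefore does not settle whether it reads Rps19. As the 2 probes disagreed, a lower level of Rps19 itself was not shown. Rps23, a decoding-centre protein, differed by only -0.023 ± 0.14 (SE).

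**Figure D3:**
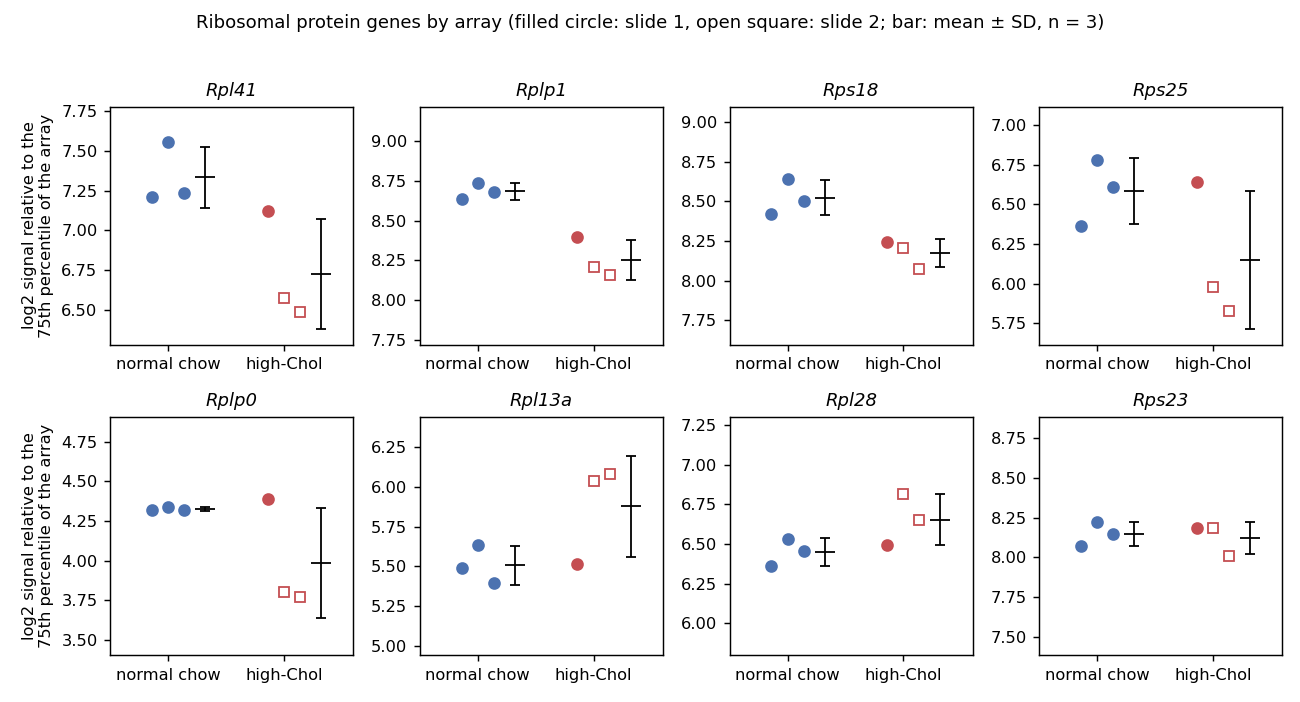
Log2 signal relative to the 75th percentile of the array (y axis, each panel spans 1.5 log2 units) for 8 ribosomal protein genes on the 3 normal chow arrays (blue) and the 3 high-Chol arrays (red). Filled circles are slide 1, open squares are slide 2, and black bars are the mean ± SD. In Rps25 and Rpl13a the high-Chol array of slide 1 sits within the chow values and the slide 2 arrays sit apart, for the probe named Rplp0 it lies just above chow and the slide 2 arrays below, whereas in Rps18 all 3 high-Chol arrays lie below chow.

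The most positive difference was that of Rpl13a, a large-subunit protein that also takes part in silencing of inflammatory mRNAs once it is released from the ribosome. Its chow values were 5.49, 5.63 and 5.39, and its high-Chol values were 5.51, 6.04 and 6.08. High-Chol array 1 sat among the chow arrays, and the difference of 0.37 ± 0.20 (SE, adjusted p = 0.314, limma) was 0.0066 with slide as a block. The next were Rpl28 (0.20 ± 0.15), Rpl30 (0.20 ± 0.15), Rpl18 (0.18 ± 0.17), Rps24 (0.17 ± 0.18) and Rpl24 (0.16 ± 0.25, each SE). Each of these 5 overlapped between the diets, and with slide as a block Rpl28 and Rpl30 were at 0.046 and 0.057, while Rpl18, Rps24 and Rpl24 turned to -0.077, -0.027 and -0.35.

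By subunit, 25 of 31 small-subunit genes were lower and 6 higher, with a median of -0.046, and 27 of 42 large-subunit genes were lower and 15 higher, with a median of -0.082. By probe name the 3 stalk genes were all lower, with a median of -0.34, or -0.064 with slide as a block. That median is the value of the probe named Rplp0, and with either Arbp probe in its place the median was -0.25, the first of the Arbp probes having a positive difference. The 3 tested paralogs were close to 0: Rps27l, a p53 target, differed by -0.11, Rpl7l1 by -0.067 and Rpl22l1, a paralog of the RNA-binding protein Rpl22, by -0.058. As with the whole family, these counts follow the scaling, and under the normexp background all 3 paralogs had a positive difference.

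In 9 of the 77 genes measured on all 6 arrays the high-Chol values lay wholly below the chow values, and in 0 wholly above. All genes gave 14.0% below and 11.9% above. Among the 9 genes were Rpl41, Rplp1, Rps18, Rpl35a, Rpl7a, Rpl27, Rps2 and Rpl6, and several of their differences were small, such as -0.12 for Rpl6. With 3 arrays against 3 the smallest p that an exact permutation test can give for a single gene is 0.10. Under quantile normalization the same count was 2 of 77 below and 13 above, against 10.1% and 13.7% of all genes.

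The 3 high-Chol arrays did not depart from chow alike. High-Chol array 1 lay inside the range of the 3 chow arrays for 57 of 79 genes, below it for 15 and above it for 7, where 45.3%, 32.9% and 21.8% of all genes did so. High-Chol array 2 lay inside for 39 of 78 genes, below for 28 and above for 11, against 27.6%, 36.4% and 36.0% of all genes. High-Chol array 3 lay inside for 29 of 78 genes, below for 36 and above for 13, against 30.8%, 33.1% and 36.1%. The departure from the chow mean had an SD over the genes of 0.12 for high-Chol array 1 and of 0.26 for the mean of the slide 2 arrays (over all genes 0.49 and 0.73). In 57 of 79 genes the slide 2 departure was the larger of the pair (65.6% of all genes), and in 48 of 79 it had the same sign as that of array 1 (66.0% of all genes). A mean of 2 arrays would by itself vary less than a single array.

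**Figure D4:**
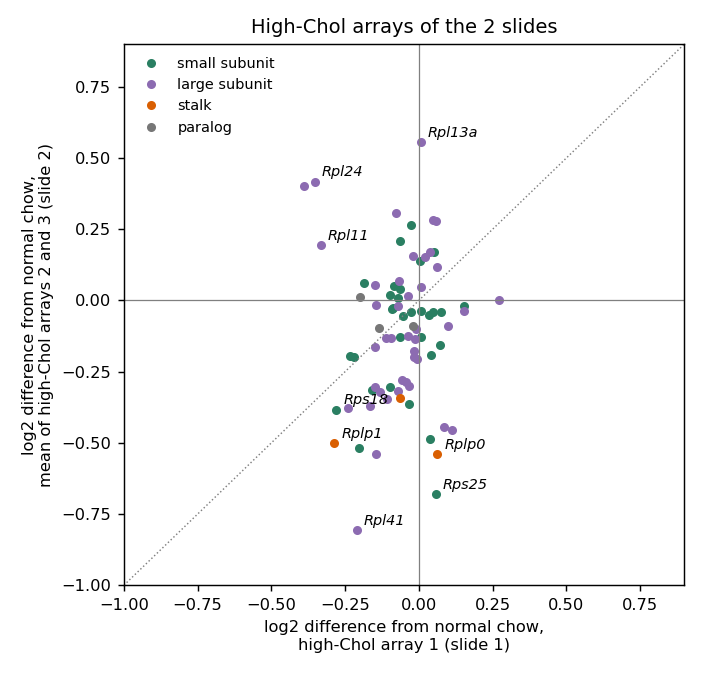
Log2 difference from the normal chow mean on high-Chol array 1 of slide 1 (x axis) against the mean of high-Chol arrays 2 and 3 of slide 2 (y axis), 1 point per ribosomal protein gene, coloured by subunit. The dotted line marks equal differences. The points spread further along the y axis (SD 0.26) than along the x axis (SD 0.12), with Rps25, Rplp0 and Rpl13a near 0 on the x axis.

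Among the chow arrays the family moved as a block. The median over the 79 genes was 6.24, 6.64 and 6.34 on normal chow arrays 1 to 3, and 6.36, 6.31 and 6.24 on high-Chol arrays 1 to 3. The chow arrays alone thus spanned 0.40, and all 3 high-Chol medians lay within that span. Over all genes the array medians lay between -0.17 and -0.13. A peak on normal chow array 2 was not confined to the family. The log2 summed level on chow arrays 1 to 3 was 9.8, 10.1 and 9.9 for mitochondrial ribosomal proteins. It was 9.1, 9.3 and 9.2 for the elongation list, 6.5, 6.8 and 6.6 for growth regulators, and 11.1, 11.3 and 11.2 for hepatocyte markers. Other lists differed, with biogenesis factors highest on array 3 (7.43) and macrophage markers on array 1 (6.93). Within a diet the median SD of a ribosomal protein gene was 0.16 on chow and 0.11 on the high-Chol diet, against 0.20 and 0.25 for all genes, which were not matched for signal level.

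**Figure D5:**
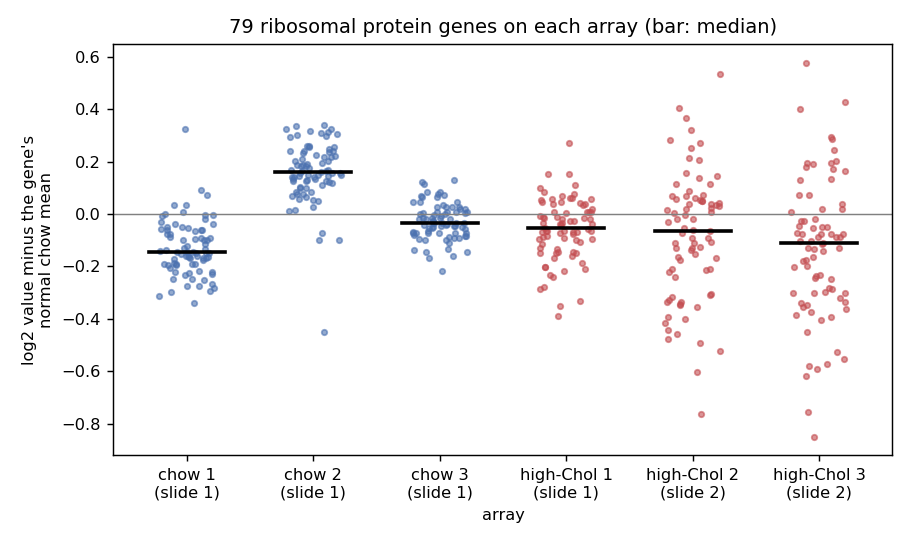
Log2 value minus the normal chow mean of the gene (y axis) for the 79 ribosomal protein genes on each array (x axis, slide in parentheses), 1 point per gene, with the median as a black bar. Nearly all genes sit above 0 on normal chow array 2, and the points spread widest on the 2 arrays of slide 2.

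Probes of the same gene could be compared in 36 genes with more than 1 probe kept. Their differences between the diets agreed to within 0.25 in 24 genes, and the median range was 0.15. In 3 genes probes differed in sign by more than 0.5. Of the Rpl7a pair printed above, the first probe gave -0.30 ± 0.15 and the second 0.26 ± 0.22 (SE), the third probe of the gene giving -0.15. The second Rpl7a probe read 5.59, 5.80 and 5.70 on chow. It read 5.54 on high-Chol array 1, below all chow arrays, and 6.06 and 6.29 on the slide 2 arrays. Rps21, which codes for a small-subunit protein, had probes at -0.022, 0.43 and 0.87. The last read 3.49, 3.85 and 3.78 on chow, and 3.85, 4.92 and 4.95 with cholesterol, with high-Chol array 1 just above the highest chow array (adjusted p = 0.200, limma on all kept probes). The 4 probes of Rpl29, a heparin-binding protein of the large subunit, gave -0.014, 0.13, 0.29 and 0.81, the first of the printed pair being the 0.29 and the second the 0.81. In the Rpl35a pair the first probe gave -0.33 ± 0.17 and the second 0.10 ± 0.18 (SE).

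Counted by probe, 50 of the 126 kept probes were higher and 76 lower, with 0 called by limma. Over all 23913 probes kept, 47.2% were higher, and 564 were called higher and 61 lower. The base composition of the probe moved with the difference. The 24 member probes with at least 55% G and C had a median difference of -0.15, and the 23 probes under 40% had one of 0.062. Pearson's r between G and C content and difference over the 126 probes was -0.31 (Spearman's rho -0.30), and -0.054 (-0.091) over all 23913 probes kept. On high-Chol array 1 alone r was -0.093 and on the slide 2 arrays -0.28. These describe probes that share arrays, and several share a gene. Of the Rpl7a pair, the first probe has 55% and the second 38.3% G and C, and the higher 2 Rps21 probes have 30% and 31.7%. The part of base composition in the differences was not tested.

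Among genes often used as references, none of the 10 listed (Rplp0, Rpl13a, Rps18, Rpl32, Rpl19, Rpl4, Rps29, Rpl37a, Rps9 and Rpl27) was called. Over all genes 2.69% were called higher and 0.227% lower. Under the scaling used 3 of the 10 were higher and 7 lower, where 47.8% of all genes were higher. The median was -0.22, against -0.023 over all genes. By the probes and scaling used, Rpl4 (0.12 ± 0.14), Rps29 (0.12 ± 0.16) and Rpl19 (-0.094 ± 0.19) had the differences nearest 0. An Arbp probe lay nearer, at 0.038. The order also changed with slide as a block (Rpl13a at 0.0066) and with normexp (Rps9 at 0.00090, Rpl4 at 0.45, Rps29 at 0.38). Rpl13a and the probe named Rplp0, at 0.37 and -0.34, lay 0.71 apart, but with the Arbp probes that match Rplp0 the distance was 0.34 and 0.49. Rpl37a, Rps9, Rpl27 and Rpl32 gave -0.24, -0.23, -0.25 and -0.21, or -0.072, -0.097, -0.15 and -0.043 with slide as a block. With the normexp background these genes turned positive, at 0.018, 0.00090, 0.073 and 0.095. Rps18 (0.065) and Rpl19 (0.16) did so too, and the probe named Rplp0 stayed lower (-0.034). With median scaling Rpl4 and Rps29 turned to -0.11 and -0.12, so the tally of higher and lower genes follows the processing.

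Ribosomal components that the name rule does not catch gave similar values. Fau, which makes a ribosomal protein fused to a ubiquitin-like protein, differed by -0.32 ± 0.16, Gnb2l1, the scaffold protein RACK1, by -0.083 ± 0.14 and Rpl36al by -0.057 ± 0.19 (each SE). The 2 probes listed under an older clone name and assigned to Rpl34 by RefSeq gave 0.0072 and 0.030. The mitochondrial ribosomal proteins, a separate family that serves the organelle, had 0 of 75 genes called, 16 higher and 59 lower, with a median of -0.11. Over all genes 2.69% were called higher and 0.227% lower, 47.8% had a higher mean, and the median was -0.023. At an unadjusted p below 0.05 (limma), 0 of the 75 were higher and 3 lower, against 12.3% and 8.83% of all genes.

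The wider translation programme was also without calls, where 2.69% of all genes were called higher and 0.227% lower. Ribosome biogenesis factors had 0 of 36 called, with 10 higher and 26 lower and a median of -0.16 (-0.61 to 0.29). At an unadjusted p below 0.05, 4 of the 36 were lower, where 8.83% of all genes were. Elongation factors and other mRNAs with a pyrimidine start had 0 of 15 called and a median of -0.13, running from -0.59 (Eif4b) to 0.58 (Tpt1). Initiation factors had 0 of 25 called and a median of -0.11, and regulators of growth and translation had 0 of 16 called, with 5 higher and 11 lower and a median of -0.17 (-1.12 to 0.49). At an unadjusted p below 0.05, 2 of the elongation list were lower, 1 initiation factor was higher and 1 lower, and 1 regulator was lower, counts to be read against 12.3% of all genes higher and 8.83% lower.

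Markers of some other cell types moved between the same arrays, where 2.69% of all genes were called higher and 0.227% lower. Of 10 macrophage markers tested, 9 were higher and 3 were called, and the log2 of their summed level was 6.62 to 6.93 on chow and 8.02 to 8.41 on the high-Chol diet. Of 3 neutrophil markers well above background on all 6 arrays, 2 were called higher, S100a8 by 3.21 and S100a9 by 2.90, and Mpo differed by 0.48. Ltf passed the filter through the high-Chol arrays alone, and with it the summed level was 0.66 to 0.83 on chow and 3.25 to 3.97 on the high-Chol diet, while Ngp was not well above background on any array. Of 7 hepatocyte markers, 6 were lower and 0 were called, with a summed level of 11.1 to 11.3 against 10.7 to 10.9. T and B cell markers (0 of 7 called, of which 3 passed the filter through 1 diet alone, the other 4 differing by -0.10 to 0.96), endothelial markers (0 of 5 called, median difference 0.27), stellate and cholangiocyte markers (1 of 7 called, median 0.069) and erythroid markers (0 of 3 called, median 0.85) completed the lists. The called marker was Col1a1, a collagen chain of stellate cells, which was higher by 1.04 (adjusted p = 0.0257, limma). The endothelial cadherin Cdh5 differed by 0.94 ± 0.21 (SE, adjusted p = 0.0719, limma). Both were named after their values were seen. The part of these shifts in the ribosomal protein values was not tested.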

How the data were processed

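Liver RNA was measured on 6 Agilent 1-colour arrays, 3 per diet. The deposited scanner files hold probe intensity that the authors processed with Agilent Feature Extraction (9.1 in the submitters' notes; 9.5 on slide 1 and 9.1 on slide 2 per the file headers), and a deposited log2 value per probe and diet, normalized by the authors and centred on normal chow, with no replicate values; the tool for this was GeneSpring per the methods. Here the processed intensity was taken to log2 and the 75th percentile of each array's non-control spots subtracted. Outlier spots were dropped, spots of a probe averaged, and probes kept that were well above background throughout at least 1 diet. The brightest probe stood for its gene. limma 3.58.1 (R 4.3.3) compared the diets, with Benjamini-Hochberg adjustment over 16727 genes. Each array is described as an independent experiment, and p-values measure the spread between these arrays. On simulated arrays limma recovered 35 of 109 genes changed 2-fold and 71 of 91 changed 4-fold, with 7 false calls among 16435 genes. Promoter sequences came from RefSeq (GRCm38.p6). Members and lists were chosen with earlier results of these data known. Named genes were those called, the 6 largest differences each way, the 5 brightest, paralogs, reference genes, genes with discordant probes and undetected genes; genes resembling the family across arrays were not reported, since 6 arrays are too few. A few genes that this rule or the lists hold are not reported here by name. Others named were chosen after their values were seen. Other background corrections, scalings, filters, probe rules, slide as a block, array weights, priors, the methods' test and leaving out each array were tried.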

Additional observations from a re-analysis of the deposited data

How the results depend on the processing

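The count of ribosomal protein genes called by limma was 0 in every alternative except array weights (3 lower: Rpl41, Rplp1 and Rps25, at -0.77, -0.49 and -0.65, with 995 of all 16727 genes called lower) and the fit without high-Chol array 1, which gives the highest of the leave-one-out counts (0 to 3). The weights gave high-Chol array 1 a weight of 0.331, the lowest of the 6. The median difference was 0.21 with the normexp background, -0.30 with median scaling, 0.14 with quantile normalization and -0.31 in the authors' deposited values, where 2 of 79 genes were higher and the median of all genes was -0.28. Genes on the higher side numbered 71, 1 and 57 under the first 3, and 50 of 126 when every probe was taken by itself. Leaving out an array in turn gave medians of -0.14 to 0.0044 and 15 to 41 genes on the higher side, the upper ends without normal chow array 2. Genes without overlap numbered 0 with normexp (all genes 3.15% above chow and 1.55% below), 15 with quantile normalization (13 above and 2 below, all genes 13.7% and 10.1%) and 4 below with the mean of the kept probes (all genes 12.3% and 12.9%). With an array left out they numbered 9 to 36, the upper end (9 above and 27 below, all genes 28.6% and 25.6%) without high-Chol array 1. Without normal chow array 1 they numbered 23, all below (all genes 16.2% and 23.3%), and without normal chow array 2 they numbered 20, 10 on each side (15.3% and 17.7%). Groups of 3 and 2 arrays separate more easily than groups of 3 and 3. Genes called over the whole array, 488 as reported, numbered 0 with normexp (0 higher and 0 lower), 26 with no filter, 11 with slide as a block, 3196 with array weights, 5 with the methods' test, and 42 (without normal chow array 2) to 3075 (without high-Chol array 1) with an array left out. Calls in the other translation lists, in either direction, numbered 8 with array weights and 0 to 9 with an array left out. Over all 16727 genes the counts were 3196, and 42 to 3075. These lists held 75 mitochondrial ribosomal proteins, 36 biogenesis factors, 25 initiation factors, 16 regulators, 15 elongation and pyrimidine-start genes and 4 components outside the name rule.

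Over 504 values of the 28 named genes under 18 alternatives, 441 kept their direction and side of the threshold, 6 passed it and 57 changed sign. The deposited values carry no p, so there only the direction was compared. With normexp the changed values were 0.16 (Rpl19), 0.24 (Rpl22l1), 0.073 (Rpl27), 0.29 (Rpl29), 0.095 (Rpl32), 0.018 (Rpl37a), 0.19 (Rpl7l1), 0.065 (Rps18), 0.038 (Rps2), 0.29 (Rps21), 0.22 (Rps23), 0.14 (Rps27l) and 0.00090 (Rps9). With quantile normalization they were 0.098 (Rpl19), 0.21 (Rpl22l1), 0.24 (Rpl29), 0.0079 (Rpl32), 0.074 (Rpl7l1), 0.20 (Rps21), 0.18 (Rps23), 0.10 (Rps27l) and 0.024 (Rps9). With median scaling and in the deposited values they were -0.057 and -0.064 (Rpl18), -0.076 and -0.082 (Rpl24), -0.032 and -0.038 (Rpl28), -0.032 and -0.038 (Rpl30), -0.11 and -0.12 (Rpl4), -0.070 and -0.076 (Rps24), and -0.12 and -0.13 (Rps29). With slide as a block they were -0.077 (Rpl18), -0.35 (Rpl24), 0.062 (Rplp0), 0.0063 (Rps21), 0.036 (Rps23), -0.027 (Rps24), 0.057 (Rps25) and -0.065 (Rps29). With the mean of the kept probes they were 0.30 (Rpl29), 0.43 (Rps21) and -0.012 (Rps24), and with array weights 0.015 (Rpl29). With an array left out, the ranges that crossed 0 were -0.24 to 0.075 (Rpl19), -0.16 to 0.013 (Rpl22l1), -0.057 to 0.053 (Rpl29), -0.10 to 0.094 (Rps21), -0.062 to 0.035 (Rps23) and -0.28 to 0.037 (Rps27l). The cause of these changes was not tested.

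The 6 arrays limit the precision: the 95% interval of a ribosomal protein gene reached a median of 0.39 on either side of its difference, so that changes of 1.5-fold were not excluded for 30 genes. No member spot was saturated. No paired analysis was possible because the labels number the replicates of both diets alike but do not say which array carries which number.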
